A study of Mus musculus with 23 samples.

Results

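Gene expression was compared between Pax5+/- and wild-type (WT) pro-B and pre-B cells that had been irradiated but had not become leukemic. The samples were chosen by their titles. They were 7 Pax5+/- samples, numbered 11 to 13 and 21 to 24, and 3 WT samples, numbered 18 to 20, which together are 10 of the 23 samples of the series. Pax5+/- mice lack 1 copy of Pax5, and the labels give no other allele. Every mouse of both groups had received a single dose of 2 Gy at 2 months of age under specific pathogen-free conditions, and marrow was taken 3 weeks after the dose. No unirradiated group was analysed here, so each difference below is one between 2 groups of irradiated mice. These groups differed in genotype, and also in sex as described below. Source names carry a different mouse number for every sample, so the replicates of each group are separate animals. The labels state neither strain nor sex, and describe no sort. The remaining samples, leukemias of 10 Pax5+/- and 3 WT mice that had received the same dose, were used only to look at the same genes in other animals, and a further WT leukemia was not analysed here.

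PAX5 is the transcription factor that commits lymphoid progenitors to the B cell lineage. It switches on genes of B cell receptor signalling and holds down genes of other blood lineages. Pro-B cells rearrange the immunoglobulin heavy chain and depend on interleukin-7, and pre-B cells assemble the pre-B cell receptor, divide, and then rearrange the light chain. Loss of 1 PAX5 copy is a known predisposition to B cell precursor leukemia in humans and mice.

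The deposited values were log2 signals, with 1 array per sample and array medians of 6.08 to 6.2. Of the genes described below, Eps8l1, Ncr1, Klra8, Tmc7, Lpcat2, Bcat1, Ifi44l and Mcoln3 had a lower group mean below every array median, and background limits their folds. The same held for Apobec2 and Klrk1, which did not pass. Marker genes of B cell precursors, such as the surrogate light chain genes and Rag1, lay above the array median in all 10 samples for 9 of 9 genes with a probe set of their own. WT sample 20 stood apart. Its score on the first principal component, which held 42.15% of the variance, was 51.95, against -12.36 to 1.62 in the other samples. All 14 neutrophil markers were highest there, with a list mean of 10.29 against 6.11 to 6.62 in Pax5+/- cells and 6.36 to 6.39 in WT samples 18 and 19. All 9 natural killer (NK) cell markers and all 21 mitosis genes were also highest in WT sample 20. Its B cell precursor mean was 11.89, against 11.93 to 12.18 in Pax5+/- samples and 12.21 to 12.24 in the other WT samples. Xist and the Y-linked gene Eif2s3y placed 3 WT and 4 Pax5+/- samples as male and 3 Pax5+/- samples (22, 23 and 24) as female, so all females before leukemia were Pax5+/-. Counts over all genes are therefore given with and without WT sample 20 and in males only, and list counts also without WT sample 20 where they differ. In bulk samples such as these, fewer cells of a type and less RNA per cell cannot be told apart.

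**Figure D1:**
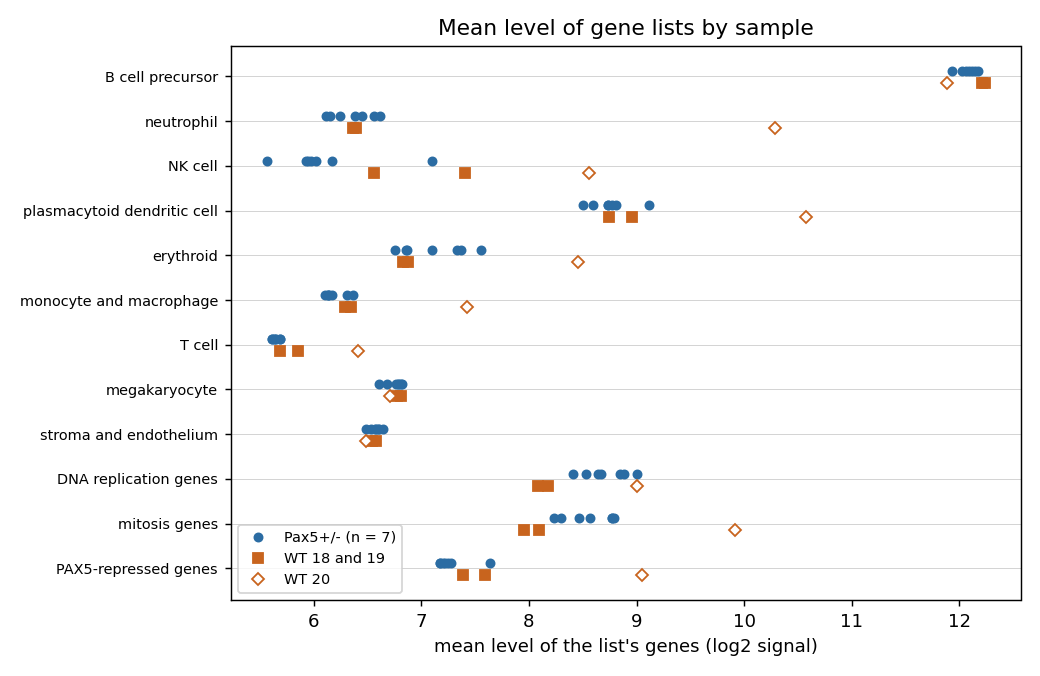
Mean log2 signal of gene lists (horizontal axis) in each preleukemic sample, with 1 point per sample, 7 Pax5+/- samples, WT samples 18 and 19, and WT sample 20 shown open. WT sample 20 lies at 10.29 on the neutrophil list and 9.92 on the mitosis list, to the right of every other sample, while the B cell precursor list holds all samples between 11.89 and 12.24.

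Pax5 itself was lower in Pax5+/- cells on average, but not in every sample. Its log2 level was 11.93, 12.06 and 11.45 in the WT samples, and ran from 11.31 through a median of 11.36 to 11.53 in the 7 Pax5+/- samples. WT samples 18 and 19 lay above all Pax5+/- samples, and WT sample 20 lay inside their range. The difference was -0.425 on the log2 scale, a 1.34-fold lower mean (exact two-sided permutation p = 0.0333, taken as 2 times the smaller tail, where 120 splits allow no p below 0.0167). In the fit across all genes Pax5 did not pass (limma adjusted p = 0.0901), and without WT sample 20 the difference was -0.61 with a limma adjusted p of 0.00131. The position of the Pax5 probes relative to the deletion is not given, so the level cannot serve as a check of genotype. Of the 20 genes on each side of Pax5 in genome order, 33 were tested, with a median difference of 0.02. Among them 1 passed, where 1.67% of all genes tested did. That gene was Gne, which encodes the first enzyme of sialic acid synthesis. Its levels were 10.53, 10.63 and 10.09 in WT samples and 9.69 to 10.07 in Pax5+/- samples, a 1.49-fold lower mean (limma adjusted p = 0.0317, and 0.166 without WT sample 19).

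Across all genes, 250 of 15011 differed between the genotypes (limma, Benjamini-Hochberg adjusted p under 0.05), which is 1.67%. Of these, 84 were higher in Pax5+/- cells (0.56%) and 166 were lower (1.11%), and 11 of the higher and 40 of the lower ones differed by more than 2-fold. The median difference over all genes tested was 0.001. In 246 of the 250 genes the 2 groups did not overlap, against 799 of all genes tested (5.32%), 324 of them higher (2.16%) and 475 lower (3.16%). In 42 the mean of the lower group lay below every array median, and their folds are limited by background. Without WT sample 20, 387 genes passed (2.59%), 167 higher (1.12%) and 220 lower (1.47%), and 188 of them were among the 250. The count was 104 without WT sample 19 and 161 without Pax5+/- sample 22. In males only, 84 of 14845 genes passed (0.566%), 31 higher (0.209%) and 53 lower (0.357%), and 78 of them were among the 250. All 250 genes kept their direction there. Fitting all 4 groups of the series together gave 97 genes (0.624%), 36 higher (0.232%) and 61 lower (0.392%).

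**Figure D2:**
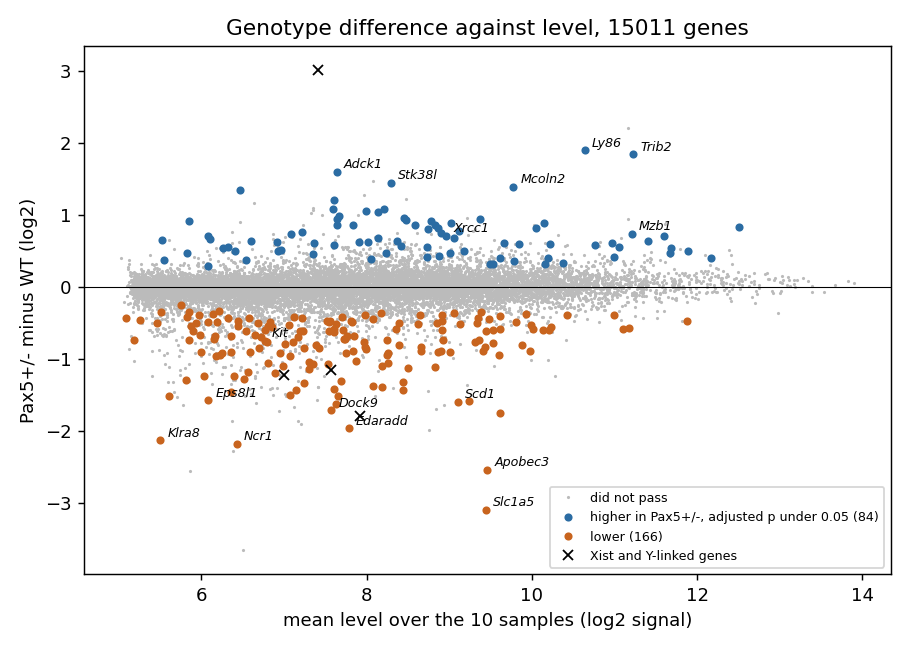
Difference in log2 signal, Pax5+/- minus WT (vertical axis), against mean log2 level over the 10 preleukemic samples (horizontal axis), with 1 point per gene. Genes with an adjusted p under 0.05 are coloured, 84 higher and 166 lower, and crosses mark Xist and Y-linked genes; Slc1a5 and Apobec3 lie lowest among the genes that passed, and Ly86 and Trib2 highest.

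The deepest falls included transport and metabolism genes. Slc1a5, which encodes the neutral amino acid and glutamine transporter ASCT2, was at 11.79, 11.73 and 11.30 in WT samples and ran from 8.17 through 8.58 to 8.84 in Pax5+/- samples. All 7 Pax5+/- values lay more than 2 log2 units below the lowest WT value. Its mean was 8.54-fold lower (-3.09 on the log2 scale, SE 0.15, limma adjusted p = 8.18e-07). Scd1, the stearoyl-CoA desaturase that makes monounsaturated fatty acids, was at 10.00, 10.49 and 10.15 in WT and 8.22 to 9.25 in Pax5+/- samples, again without overlap, a 3.01-fold fall (adjusted p = 0.00271). Lpcat2, a lysophospholipid acyltransferase, fell 2.74-fold (adjusted p = 0.0082). Mgst2, a microsomal glutathione S-transferase, fell 2.83-fold (adjusted p = 0.00615). Bcat1, which starts the breakdown of branched-chain amino acids in the cytosol, was chosen after its values were seen: it was at 6.98, 7.14 and 7.68 in WT samples and 5.92 to 6.09 in Pax5+/- samples, a 2.36-fold fall (adjusted p = 0.000499). The Pax5+/- means of Bcat1 and Lpcat2 lay below every array median. In males only, Lpcat2 did not pass (adjusted p = 0.0801).

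Apobec3, a cytidine deaminase that restricts retroviruses, showed the second deepest fall of the named genes. Its levels were 10.92, 11.63 and 11.15 in WT samples, and 8.62 to 8.77 with a median of 8.71 in Pax5+/- samples. The Pax5+/- samples thus lay within a narrow band far below all WT samples. The mean was 5.8-fold lower (-2.54 on the log2 scale, SE 0.12, adjusted p = 8.18e-07). Of 3 cytidine deaminases tested, Apobec3 was the 1 that fell, where 1.11% of all genes tested fell. Apobec1, the mRNA-editing deaminase, was at 11.55, 11.50 and 10.84 in WT and 10.80 to 11.42 in Pax5+/- samples, so WT samples 18 and 19 lay just above the Pax5+/- range and WT sample 20 inside it (difference -0.12, adjusted p = 0.844), and Apobec2 differed by -0.13 (adjusted p = 0.615). Cbx7, a Polycomb subunit whose gene lies next to Apobec3 among the genes tested, was also lower, by 1.30 on the log2 scale.

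Further deep falls were found in genes of varied roles. Edaradd, the death-domain adaptor of the ectodysplasin receptor, was at 9.34, 9.40 and 8.73 in WT samples and 6.99 to 7.50 in Pax5+/- samples, a 3.89-fold fall without overlap (adjusted p = 0.000101). Dock9, an exchange factor for CDC42, was at 8.95, 8.85 and 8.50 in WT and 6.65 to 7.54 in Pax5+/- samples, a 3.27-fold fall (adjusted p = 0.000663). Both had no Pax5+/- sample near the WT range. Eps8l1, related to the actin regulator EPS8, fell 2.98-fold from 7.21, 7.35 and 6.99 to 5.52 to 5.69 (adjusted p = 8.18e-07). Slfn2, a Schlafen gene needed for T cell quiescence, fell 2.99-fold (adjusted p = 0.00369). Lcp2, which encodes the adaptor SLP-76, fell 2.85-fold (adjusted p = 0.027, and 0.102 without WT sample 19). Klhl14, a BTB-Kelch gene of B cells, was at 9.31, 9.04 and 7.96 in WT and 6.75 to 7.84 in Pax5+/- samples, so that WT sample 20 lay just above the Pax5+/- range. It fell 3.09-fold (adjusted p = 0.0171, 0.113 without WT sample 19 and 0.0543 without WT sample 18).

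Tmc7, a transmembrane channel-like gene, was at 7.01, 6.93 and 6.06 in WT and 5.05 to 5.30 in Pax5+/- samples (2.85-fold, adjusted p = 0.000722), with its Pax5+/- mean below every array median. Tmc6 and Tmc8, adjacent genes of the same family chosen after their values were seen, fell 2.09-fold and 1.79-fold (adjusted p = 0.00103 for each). Receptors among the falls included Notch2, which directs marginal zone B cells and was also chosen after its values were seen. Its levels were 9.52, 9.52 and 9.80 in WT and 8.24 to 8.80 in Pax5+/- samples, a 2.17-fold fall (adjusted p = 0.000663). Kit, the stem cell factor receptor carried by pro-B cells, was at 7.21, 7.29 and 7.37 in WT and 6.37 to 6.67 in Pax5+/- samples, a 1.68-fold fall (adjusted p = 0.000945). Cnr2, the cannabinoid receptor of B cells, fell 2.19-fold (adjusted p = 0.0128, and 0.0935 without WT sample 19).

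The last group of deep falls were genes of NK cells and cytotoxic lymphocytes. Ncr1, which encodes the NK receptor NKp46, was at 6.61, 7.94 and 9.31 in WT samples and ran from 5.11 to 6.97 in Pax5+/- samples, so the groups overlapped. Its mean was 4.52-fold lower (adjusted p = 0.0465, and 0.163 without WT sample 19). The fold was 2.82 without WT sample 20 (adjusted p = 0.0693), and the log2 difference went from -2.18 to -2.85 without WT sample 18. Klra8, an activating Ly49 receptor, was at 5.76, 6.65 and 8.56 in WT and 4.55 to 5.30 in Pax5+/- samples (4.37-fold lower, adjusted p = 0.0302, and 0.0938 without WT sample 19). The fold of Klra8 was 2.54 without WT sample 20, and its log2 difference went from -2.13 to -2.74 without WT sample 18. Ly49 genes are near-identical copies of each other, so probes may not separate them. Ccl5, a chemokine of cytotoxic lymphocytes, was at 9.87, 11.07 and 11.59 in WT and 8.38 to 10.24 in Pax5+/- samples (3.38-fold lower, adjusted p = 0.0465, 0.0904 without WT sample 20 and 0.189 without WT sample 19). Of 9 NK cell markers tested, 0 rose and 1 fell, Ncr1, where 0.56% rose and 1.11% fell over all genes tested. The median of the NK markers was -1.34, and without WT sample 20 none passed and the median was -0.78. The NK list mean was 5.56 to 7.1 in Pax5+/- samples, 6.56 to 7.4 in WT samples 18 and 19, and 8.55 in WT sample 20. Of the 9 markers, 2 lay above the array median in all samples and none lay below it in all samples. Their part in the falls above was not tested.

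Among the rises, Ly86 was the largest. It encodes MD-1, the secreted partner that the Toll-like receptor homologue CD180 needs to reach the B cell surface. Ly86 was at 8.78, 8.79 and 10.35 in WT samples, and ran from 10.91 through 11.30 to 11.44 in Pax5+/- samples. All Pax5+/- samples lay above WT sample 20, which in turn lay above the other WT samples. The mean was 3.74-fold higher (1.90 on the log2 scale, SE 0.28, adjusted p = 0.00432), 5.38-fold higher without WT sample 20 (adjusted p = 4.38e-07), and did not pass in males only (1.79, adjusted p = 0.0739). Cd180 itself, named after its values were seen, overlapped, at 10.34, 10.74 and 11.04 in WT and 10.49 to 11.15 in Pax5+/- samples (difference 0.07, 95% interval -0.30 to 0.44, adjusted p = 0.927). Of 15 genes of the list of Toll-like receptors with Ly86 and Cd180, 1 rose, Ly86, and 0 fell, with a median of -0.10. Over all genes tested, 0.56% rose and 1.11% fell.

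Trib2, a Tribbles pseudokinase, rose 3.6-fold. Its levels were 11.18, 9.63 and 9.00 in WT and 11.59 to 11.91 in Pax5+/- samples, so the WT samples were spread and the Pax5+/- samples lay close together above them (adjusted p = 0.0151, and 0.103 without WT sample 19). The log2 difference of Trib2 was 1.85 with all samples, 1.38 without WT sample 20 and 2.47 without WT sample 18. Mcoln2, a lysosomal cation channel of lymphoid and myeloid cells, was at 8.96, 8.94 and 8.48 in WT and 9.79 to 10.47 in Pax5+/- samples, a 2.64-fold rise (adjusted p = 0.000663). Its neighbour and paralogue Mcoln3, named after its values were seen, rose 1.59-fold (adjusted p = 0.049), a call that was lost whichever sample was left out (adjusted p from 0.0508 to 0.104). Stk38l, a kinase of the NDR family, was at 7.37, 7.23 and 7.24 in WT and 8.28 to 9.25 in Pax5+/- samples, a 2.73-fold rise (adjusted p = 0.00219). Adck1, a mitochondrial atypical kinase, rose 3.04-fold (adjusted p = 0.0128, and 0.0754 without WT sample 19). Its log2 difference was 1.60 here but 0.08 in the fit of all 4 groups (limma adjusted p = 0.923). The brightest probe set is chosen in each fit, and another Adck1 probe set was read there. The rise of Adck1 was thus seen in 1 probe set and not in the other. Ifi44l, an interferon-induced gene, rose 2.54-fold from a WT mean below every array median (adjusted p = 0.0217, and 0.102 without WT sample 19).

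The other genes of largest rise differed by 1.92-fold to 2.31-fold. Gtse1, a microtubule-associated gene of G2 phase, was at 6.41, 6.29 and 7.60 in WT and 7.71 to 8.23 in Pax5+/- samples (adjusted p = 0.0254, 0.144 without WT sample 19 and 0.074 without WT sample 18). Cenpv, which encodes a centromere protein, was at 7.70, 7.71 and 7.93 in WT and 8.61 to 8.91 in Pax5+/- samples, with little spread in either group (1.95-fold higher, adjusted p = 0.000499). Gnb4, a G protein beta subunit, rose 2.13-fold, and Tnnt2, the cardiac form of troponin T, 2.07-fold (adjusted p = 0.0183 and 0.0128). Gnb4 did not pass without WT sample 19 (adjusted p = 0.0918). Rassf4, Fmn2 and Oaf each rose 1.92-fold, and Gfod1 (2.12-fold) and Prxl2c (2.06-fold) rose but did not pass without WT sample 19 (adjusted p = 0.127 and 0.116). Myl4, a myosin light chain gene named after its values were seen, was among the brightest signals, at 11.93, 12.02 and 11.83 in WT and 12.66 to 12.92 in Pax5+/- samples (1.78-fold higher, adjusted p = 0.000146). Mzb1, a chaperone of immunoglobulin secretion, was at 10.91, 10.71 and 10.45 in WT and 11.29 to 11.58 in Pax5+/- samples (1.67-fold higher, adjusted p = 0.00266). Mzb1 was the 1 gene of 7 plasma cell markers tested to rise, and 0 fell, where 0.56% rose and 1.11% fell over all genes tested.

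Of the 44 genes named here that passed and were put through the alternatives, 26 still passed when each of the 10 samples was left out in turn. The other 18 were all lost without WT sample 19. Cbx7 and the genes named below only in neighbour pairs were not among the 44. In males only, 20 of the 44 did not pass (adjusted p from 0.0637 to 0.25): Ncr1, Klra8, Ccl5, Lcp2, Lpcat2, Ly86, Trib2, Adck1, Ifi44l, Gtse1, Gnb4, Gfod1, Prxl2c, Fmn2, Cnr2, Gimap1, Pfkp, Aldoa, Gne and Mcoln3. With all 4 groups fitted together, 20 did not pass (adjusted p from 0.0713 to 0.923): Ncr1, Ccl5, Scd1, Slfn2, Lcp2, Mgst2, Trib2, Adck1, Ifi44l, Gnb4, Tnnt2, Rassf4, Kit, Gimap1, Pfkp, Aldoa, Mzb1, Gne, Mcoln3 and Myl4. Adck1 was read from another probe set in that fit. Slc1a5, Apobec3, Edaradd, Dock9, Eps8l1, Notch2, Stk38l, Mcoln2 and Cenpv, 9 in all, passed under every alternative that was run for them.

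**Figure D3:**
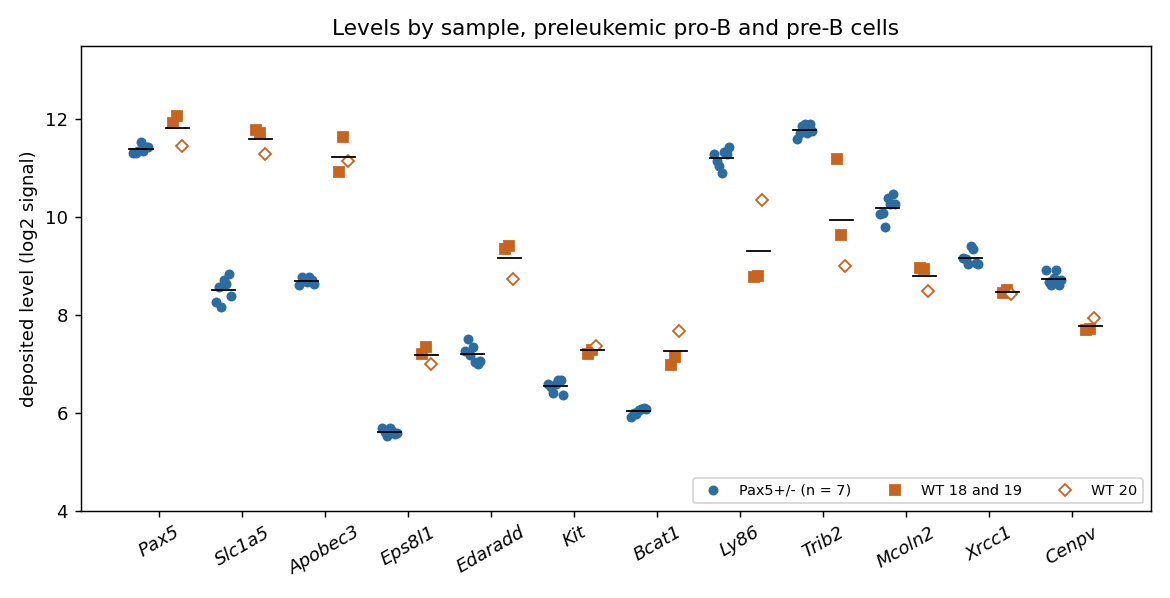
Deposited log2 signal (vertical axis) of 12 genes in each preleukemic sample, with 7 Pax5+/- samples, WT samples 18 and 19, WT sample 20 shown open, and a bar at each group mean. Slc1a5, Apobec3, Edaradd, Eps8l1, Kit and Bcat1 lie lower and Ly86, Trib2, Mcoln2, Xrcc1 and Cenpv higher in all 7 Pax5+/- samples, while for Pax5 WT sample 20 (11.45) lies among them.

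Promoter sequences are shown for Ly86, the largest rise, for Apobec3, the second deepest fall, and for Bcat1, a falling gene whose promoter holds the core letters bound by the PAX5 paired domain. They come from RefSeq (GRCm38.p6), run 5′ to 3′ on the strand of the gene from 250 bases before the start to 50 bases after it, and capitals mark a motif match. Ly86 lies at chr13:37345095-37345394 on the plus strand, Apobec3 at chr15:79894773-79895072 on the plus strand, and Bcat1 at chr6:145048763-145049062 on the minus strand. For Apobec3 and Bcat1, each with 2 listed starts, the start whose window holds a match is shown.
Ly86: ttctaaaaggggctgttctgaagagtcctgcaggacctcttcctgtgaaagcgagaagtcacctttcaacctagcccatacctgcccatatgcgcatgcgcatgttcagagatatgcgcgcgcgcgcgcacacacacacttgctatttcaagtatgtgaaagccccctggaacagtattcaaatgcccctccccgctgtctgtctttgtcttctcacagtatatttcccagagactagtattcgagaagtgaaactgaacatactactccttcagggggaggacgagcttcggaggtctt
Apobec3: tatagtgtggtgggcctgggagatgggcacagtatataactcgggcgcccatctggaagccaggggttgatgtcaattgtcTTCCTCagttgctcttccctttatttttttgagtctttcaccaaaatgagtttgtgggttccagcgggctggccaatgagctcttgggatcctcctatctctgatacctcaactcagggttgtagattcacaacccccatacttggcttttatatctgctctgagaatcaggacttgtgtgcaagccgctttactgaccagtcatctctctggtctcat
Bcat1: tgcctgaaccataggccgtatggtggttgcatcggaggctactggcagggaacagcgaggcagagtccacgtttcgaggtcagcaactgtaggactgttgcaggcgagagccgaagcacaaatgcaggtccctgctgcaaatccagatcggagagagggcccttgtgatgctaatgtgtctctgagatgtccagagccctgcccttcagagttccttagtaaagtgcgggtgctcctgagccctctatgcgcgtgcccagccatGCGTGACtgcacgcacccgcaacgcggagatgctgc

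The motifs searched on both strands were GCGTGAC for the PAX5 paired domain, the palindromic EBF1 site, CAGCTG for E2A and GAGGAA for PU.1. The Ly86 window holds none of these letters. The Apobec3 window holds the PU.1 core in the reverse orientation, TTCCTC, and the Bcat1 window holds GCGTGAC just after the start. Shares of promoters count single windows, while a gene counts if the window of any of its starts held a match, so the 2 are unlike. Shares of genes cover the 11881 tested genes with a listed promoter, of which 131 fell and 73 rose. GCGTGAC occurred in 2.09% of 32851 promoters, in 3.96% of genes tested, in 4 of 131 genes that fell (3.05%) and in 3 of 73 that rose (4.11%). Dock9 was among the genes that fell with these letters. GAGGAA occurred in 28.3% of all promoters, 30.5% of genes tested, 40.5% of genes that fell (53 of 131) and 24.7% of genes that rose (18 of 73). CAGCTG occurred in 16.3% of all promoters, 18.8% of genes tested, 22.1% of genes that fell (29 of 131) and 17.8% of genes that rose (13 of 73). For the EBF1 site these shares were 0.904%, 1.26%, 0.763% and 1.37%. A match describes letters and does not show binding.

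Genes of the PAX5 programme were looked at as lists. Over all genes tested, 0.56% rose and 1.11% fell, and without WT sample 20 these shares were 1.12% and 1.47%. A count of 0 or 1 in a list of this size thus cannot tell a changed programme from an unchanged one. Of 20 PAX5-activated targets tested, 0 rose and 1 fell, and the median difference was -0.06. The gene that fell was Gimap1, a GTPase for lymphocyte survival, at 8.34, 8.53 and 8.30 in WT and 7.79 to 8.22 in Pax5+/- samples (1.36-fold, adjusted p = 0.0448, 0.198 without WT sample 19 and 0.0706 without WT sample 18). Without WT sample 20, 3 fell, Gimap1 together with Bach2, a repressor of plasma cell fate, and Siglecg, an inhibitory lectin of B cells. Bach2 was at 12.31, 12.34 and 11.77 in WT and 11.44 to 11.82 in Pax5+/- samples (difference -0.47, adjusted p = 0.0821, and -0.65 with 0.00207 without WT sample 20). Siglecg was at 11.46, 11.47 and 10.95 in WT and 10.69 to 11.09 in Pax5+/- samples (difference -0.40, adjusted p = 0.129, and -0.57 with 0.00699 without WT sample 20).

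Among 18 genes of other lineages that PAX5 represses, 0 rose and 0 fell. Their median was -0.67, and -0.18 without WT sample 20, where the list mean was 9.05 against 7.38 to 7.59 in the other WT samples and 7.17 to 7.64 in Pax5+/- samples. Il2rb, the interleukin-2 receptor beta chain, was one of these, at 7.31, 8.44 and 9.66 in WT and 5.97 to 7.75 in Pax5+/- samples (difference -1.87, adjusted p = 0.0583, and -1.27 with 0.101 without WT sample 20).

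The stage genes of B cell development were looked at in the same way, beside 0.56% higher and 1.11% lower over all genes tested. Of 20 B-lineage transcription factor genes, 0 rose and 0 fell (median -0.06), and among them Tcf4, which encodes the E protein E2-2, was lower in all Pax5+/- samples without passing (difference -0.47, adjusted p = 0.0521). Of 16 pro-B cell and V(D)J recombination genes, 0 rose and 1 fell, Kit. Il7r, the interleukin-7 receptor, was at 12.36, 11.99 and 11.95 in WT and 12.35 to 12.75 in Pax5+/- samples, a difference of 0.44 that did not pass (adjusted p = 0.0518). Of 17 genes of the pre-B cell receptor and its signalling, 0 rose and 0 fell (median -0.05). Of 21 genes of small pre-B to immature B cells, 0 rose and 1 fell, Cnr2 (median -0.10, and -0.37 without WT sample 20, where Bach2 also fell). Il2ra, the CD25 marker of pre-B cells, was at 12.04, 11.94 and 11.37 in WT and 12.04 to 12.38 in Pax5+/- samples (difference 0.45, adjusted p = 0.117). The 8 immunoglobulin segments tested had a median of 0.44 and none passed.

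Growth and survival lists were set beside the same shares, 0.56% higher and 1.11% lower over all genes tested. Of 18 genes of interleukin-7, JAK-STAT and SOCS signalling, 0 rose and 0 fell (median -0.12). Jak1, a kinase of the interleukin-7 receptor, lay lower in all Pax5+/- samples without passing (difference -0.39, adjusted p = 0.0532). Of 14 BCL2 family genes 0 passed, and Bcl2, the survival gene of the family, was at 7.26, 7.79 and 9.15 in WT and 7.13 to 7.48 in Pax5+/- samples (difference -0.82, and -0.28 without WT sample 20). Of 22 MYC targets, 0 passed (median -0.04). Of 12 glycolysis genes, 0 rose and 2 fell: Pfkp, a phosphofructokinase (1.53-fold, adjusted p = 0.0302), and Aldoa, an aldolase (1.31-fold, adjusted p = 0.0316). Both were lost without WT sample 20 (adjusted p = 0.0625 and 0.0541) and without WT sample 19 (adjusted p = 0.127 and 0.15).

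The proliferation genes depended on WT sample 20. Of 27 DNA replication genes, 0 passed with all samples, and 25 lay above 0 (median 0.27). Over all genes tested, 49.6% lay below 0. Genes of this list were read in the same samples, so their signs are not separate observations. Without WT sample 20, 8 of the 27 rose and 0 fell (median 0.58). Over all genes without that sample, 1.12% rose and 1.47% fell. Pcna, the sliding clamp of DNA polymerases, was at 11.77, 11.66 and 12.26 in WT and 12.20 to 12.52 in Pax5+/- samples (1.32-fold higher, adjusted p = 0.126, and 1.5-fold with 0.0032 without WT sample 20). Mcm5, a subunit of the replicative helicase, was at 8.64, 8.69 and 9.67 in WT and 9.19 to 9.75 in Pax5+/- samples (1.4-fold, adjusted p = 0.318, and 1.77-fold with 0.00855 without WT sample 20). WT samples 18 and 19 thus lay below all Pax5+/- samples, and WT sample 20 lay inside or near the top of their range. Of 21 mitosis genes, 0 passed (median -0.15), and without WT sample 20, 4 rose (Ccna2, Kif11, Nusap1 and Top2a) and 0 fell (median 0.46). Ccna2, the cyclin of S and G2 phases, was at 9.19, 9.26 and 11.42 in WT and 9.82 to 10.45 in Pax5+/- samples. It differed by 0.21 with all samples (adjusted p = 0.895) and by 0.94 without WT sample 20 (adjusted p = 0.00818), with opposite sign without WT sample 18 (-0.17) or 19 (-0.14). Top2a, the DNA topoisomerase of dividing cells, followed the same pattern, at 8.87, 8.84 and 11.26 in WT and 9.27 to 10.25 in Pax5+/- samples. Its difference was 0.18 with all samples, 0.99 without WT sample 20, -0.21 without 18 and -0.22 without 19. Only 2 WT samples remain without sample 20, which also held the highest neutrophil and NK markers.

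Repair genes were looked at because irradiation breaks DNA. Of 20 genes of base excision and single-strand break repair, 1 rose and 0 fell, where 0.56% rose and 1.11% fell over all genes tested. Without WT sample 20, 2 rose, where 1.12% of all genes did. The second was the glycosylase gene Neil3 (adjusted p = 0.0381, against 0.905 with all samples). Neil3 was at 7.47, 7.51 and 9.58 in WT samples 18, 19 and 20. The gene that rose with all samples was Xrcc1, the scaffold of single-strand break repair, at 8.45, 8.52 and 8.42 in WT and 9.04 to 9.42 in Pax5+/- samples. All Pax5+/- samples lay above the narrow WT range (1.64-fold higher, SE 0.10, adjusted p = 0.00265, and 0.0286 in males only). In the same list the glycosylase Neil1 differed by 0.57 without overlap (adjusted p = 0.11), and Mbd4, a glycosylase at deaminated CpG sites, differed by -0.56 without overlap (adjusted p = 0.0703). Of 14 non-homologous end joining genes 0 passed (median 0.02), with Lig4, the ligase of this pathway, at 10.06, 10.00 and 9.42 in WT and 10.12 to 10.39 in Pax5+/- samples (difference 0.41, adjusted p = 0.137). Without WT sample 20, 1 gene of this list rose, Rif1, a regulator of repair pathway choice (0.72, adjusted p = 0.0152, against 0.43 with 0.342 with all samples). Of 27 homologous recombination and Fanconi genes 0 passed (median 0.07), and of 6 mismatch repair genes 0 passed (median 0.06). Of 18 DNA damage checkpoint genes 0 passed (median 0.14), and without WT sample 20, 4 rose (Cdc25a, Chek1, Rnf168 and Tipin), against 1.12% of all genes. Only 2 WT samples remain in that fit. Chek1 was at 7.29, 6.90 and 8.38 in WT samples 18, 19 and 20. Its difference was 0.48 with all samples (adjusted p = 0.475) and 0.91 without WT sample 20 (adjusted p = 0.0211). Of 25 p53 target genes 0 passed (median 0.09), and of 16 antioxidant genes 0 passed (median -0.04).

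The remaining lists held no gene that passed with all samples. They were 23 driver and suppressor genes of B cell leukemia (median -0.09 with all samples and -0.09 without WT sample 20), 20 inflammation and NF-kB targets (-0.04 and -0.09), 19 interferon response genes (-0.24 and -0.09), 8 MHC class II genes (-0.36 and -0.14) and 16 homing and adhesion receptors (-0.28 and -0.13). Without WT sample 20, Bcl3 fell in the inflammation list and S1pr4, a sphingosine-1-phosphate receptor, in the homing list. Among the lists of other cell types, 0 of 12 neutrophil markers passed, with a median of -1.35 that was -0.03 without WT sample 20. The median of 12 monocyte and macrophage markers was -0.28 (-0.14 without WT sample 20), that of 7 T cell markers -0.23 (-0.15) and that of 6 plasmacytoid dendritic cell markers -0.65 (-0.07), and 0 passed in each. Stem and progenitor markers held 1 fall in 6, Kit, where 1.11% of all genes tested fell. No marker passed among the erythroid, megakaryocyte, stromal, mature B cell and mast cell lists.

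Neighbouring genes that both passed were listed among the 15001 genes tested with a place in the genome. With 1.67% of all genes tested passing, 84 higher and 166 lower, some such pairs and some shared directions arise between unrelated genes. The number expected was not worked out. There were 14 pairs of adjacent genes in which both passed, and in 14 of 14 the direction was the same. Besides Apobec3 with Cbx7, Tmc6 with Tmc8 and Mcoln3 with Mcoln2, they included Enpep with Elovl6 (-1.29 and -0.77), Myo7a with Capn5 (-1.10 and -0.77), Capg with Elmod3 (-1.02 and -0.42), Cnr2 with Fuca1 (-1.13 and -0.38), and Zfp428 with Irgq (0.62 and 0.87). On chromosome 6 the share of tested genes that passed was 3.0% (23 of 767), the highest of any chromosome, and on chromosome 16 it was 0.208%. Chromosome 4, which carries Pax5, held 1.37%.

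Within the Pax5+/- samples the median SD over genes was 0.122 on the log2 scale. It was 0.151 among the 3 WT samples and 0.092 between WT samples 18 and 19. A median SD from fewer samples tends to come out lower, so the value for 2 samples is not directly comparable. A few genes split the Pax5+/- mice. Trim12a, a TRIM family gene, was at 5.65 and 5.68 in samples 23 and 24, 8.37 to 9.45 in the other Pax5+/- samples and 9.21 to 9.37 in WT. Trim30d, of the same family, was likewise lowest in samples 23 and 24, at 5.42 and 5.18, against 6.59 to 7.72 in the other Pax5+/- samples. The gene model Gm4759 was at 8.41 and 8.47 in those samples and 10.05 to 10.72 in the others. Fos was at 6.41 and 6.24 in samples 13 and 24 and 7.21 to 8.82 in the other Pax5+/- samples, and at 8.85, 6.40 and 6.52 in WT. Nr4a1, like Fos an immediate early gene, was at 7.06 and 6.90 in samples 13 and 24, against 7.82 to 9.43 in the others.

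In leukemias of other mice, few of these differences were seen again. Of 15223 genes tested there, 1 passed between the genotypes (0.00657%, and 707 at an unadjusted p under 0.05), and it was Ly86. Its level was 11.16, 9.56 and 10.23 in WT leukemias and 12.08 to 12.52 in the 10 Pax5+/- leukemias, a 3.88-fold higher mean without overlap (limma adjusted p = 0.0138). Without WT leukemia 17, Ly86 did not pass and 1 other gene did. Without WT leukemia 14, 121 genes passed, Ly86 among them. The genotype difference in Ly86 was 1.90 before leukemia and 1.95 in leukemia, and the test of the difference between stages gave an adjusted p of 0.993.

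Of the 84 genes higher in Pax5+/- cells before leukemia, 68 were above 0 in leukemia (81%), against 53.5% of all genes tested there. Of 161 lower genes tested in leukemia, 93 were below 0 (57.8%), against 46.4% of all genes. Their median differences were 0.16 and -0.04 in leukemia, compared with 0.64 and -0.72 before it. The genotype difference itself changed between the stages for 15 of 15542 genes, and all 15 were among the 250. That test uses the same preleukemic difference that chose the 250, so this overlap is partly built in. A smaller difference in other animals is likewise partly built in for genes chosen by a large one. Dock9 was lower in Pax5+/- cells before leukemia and was at 6.63, 7.06 and 6.51 in WT against 6.77 to 8.47 in Pax5+/- leukemias (change between stages -2.75, adjusted p = 0.00373). Edaradd, Klhl14 and Tmc7 were near or below the array median in leukemias of both genotypes, with differences close to 0. Slc1a5 was at 9.26, 9.56 and 9.95 in WT leukemias and 7.96 to 9.12 in Pax5+/- leukemias, so the groups did not overlap, and its difference of -1.20 (adjusted p = 0.262) was smaller than the -3.09 before leukemia (change -1.90, adjusted p = 0.0139).

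**Figure D4:**
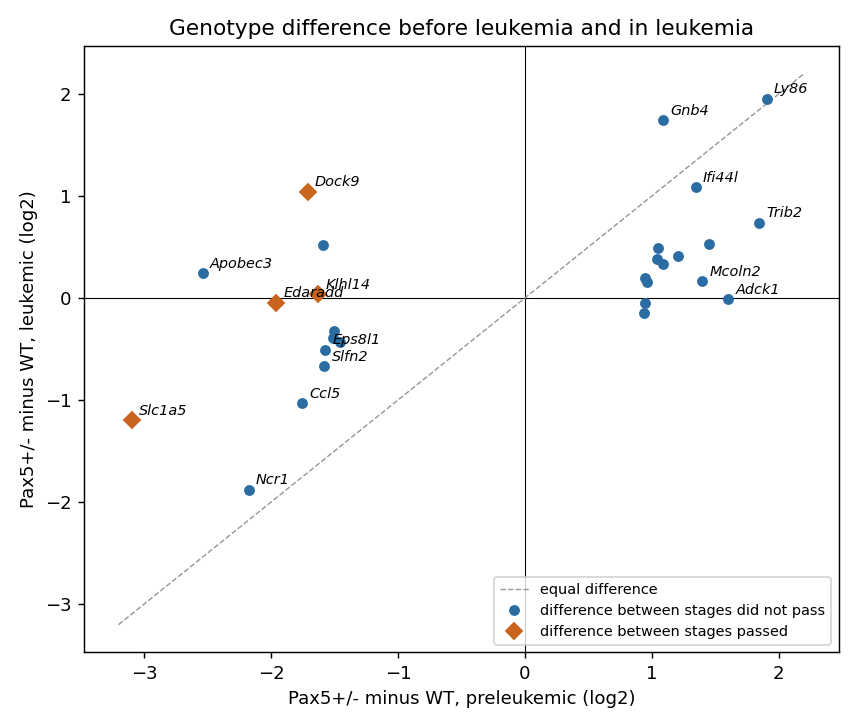
Pax5+/- minus WT difference in log2 signal before leukemia (horizontal axis) and in leukemia (vertical axis) for the 28 genes of largest rise and fall tested at both stages, with 1 point per gene and a dashed line of equal difference. Ly86 lies near the line at 1.90 and 1.95, and the 4 genes whose change between stages passed (diamonds) are Slc1a5, Edaradd, Dock9 and Klhl14. Adck1 was read from a different probe set in leukemia than before it.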

How the data were processed

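Total RNA of 10 preleukemic and 13 leukemic marrow samples was hybridised to 1-colour arrays, 1 per sample, after Trizol extraction and biotin labelling, per the labels' protocols. The authors deposited log2 signals per probe set; Transcriptome Analysis Console is named per the submitters' processing notes (no version); how signals were corrected, summarized and normalized is not given in the sources used here. Depth does not apply to arrays, and their number limits the precision.

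Of 28944 probe sets, 21789 carried 1 gene symbol, 1621 several and 5534 none, and the last 2 kinds were left out. Where a symbol had several, the brightest on average over the samples of a fit stood for it, giving 19938 symbols. The probe set of a gene could thus differ between fits. Genes above the 30th percentile of their array on at least 3 samples were tested, which kept 15011 and removed 4927. Genotypes were compared with limma 3.58.1 in R 4.3.3 (lmFit, eBayes with intensity trend, two-sided, Benjamini-Hochberg over all genes tested, threshold 0.05). The fit held only the 2 groups compared, a choice made with earlier results known: the median SD over genes was 0.175 in leukemias against 0.122 before leukemia in Pax5+/- mice, but 0.13 against 0.151 in WT. Fitting all 4 groups, used for the change between stages, is given as an alternative. Folds are 2 raised to the log2 difference. Pax5 was also compared by exact permutation of samples. Sex was read from Xist and Eif2s3y. No 2 samples were copies of each other.

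The groups, gene lists and genes were chosen with earlier results of these data known. Named genes were Pax5, the 15 of largest rise and 15 of largest fall that passed (without predicted genes, small RNAs, olfactory, vomeronasal and antigen receptor segments, Xist and Y-linked genes), up to 3 of smallest p per list, and Pax5 neighbours that passed. Others are said to have been named after their values were seen, among them Cd180, Mcm5, Ccna2 and Top2a, and the genes in neighbour pairs and those that split the Pax5+/- mice. Genes without a probe set of their own (such as Trp53 and Cdkn1a) were not analysed here. Alternatives were other filters, variance models, array weights, normalizations, all probe sets, sex, the letter of the mouse number and leaving out each sample. The fit was tested on simulated data. Figures were drawn with matplotlib 3.10.9.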

Additional observations from a re-analysis of the deposited data

Results flagged for a closer look

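Of 114 genes and gene lists looked at for a Pax5+/- sample far from the rest of its group, 9 had one, and chance gives about 1 in 20. The WT group was not looked at. The 9 are not independent, since Ncr1 and Klrk1 belong to the NK list and Il2rb to the PAX5-repressed list. In Pax5+/- sample 12, NK and cytotoxic genes lay above the other 6 Pax5+/- samples. Ncr1 was at 6.97 against 5.11 to 5.86, Klrk1 at 5.57 against 4.80 to 5.04, and Il2rb at 7.75 against 5.97 to 6.68. The means of the NK list (7.10 against 5.56 to 6.17) and of the PAX5-repressed list (7.64 against 7.17 to 7.28) were also highest there. Pax5+/- sample 23 held the lowest Mbd4 (7.57 against 8.01 to 8.27), the lowest mean of the pre-B cell receptor list (10.48 against 10.64 to 10.76) and the lowest mean of the non-homologous end joining list (8.21 against 8.38 to 8.48). Lpcat2 was at 6.16 in Pax5+/- sample 24, against 5.84 to 5.90.

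The genotype difference before leukemia minus that in leukemia was tested for each named gene in the fit of all 4 groups. It was -1.90 for Slc1a5 (limma adjusted p = 0.0139), -1.92 for Edaradd (0.000904), -2.75 for Dock9 (0.00373), -1.67 for Klhl14 (0.024), -1.56 for Tmc7 (0.000104), -1.61 for Bcat1 (0.0308) and -1.06 for Tmc6 (0.0122). For Edaradd, Klhl14, Tmc7 and Bcat1 the mean signal in leukemias of both genotypes was near or below the array median, so background limits any difference there. Every WT leukemia read as female and every WT preleukemic sample as male, so sex and stage cannot be told apart in WT mice.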

How the results depend on the processing

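The count of 250 genes before leukemia was within 1.5 times of that value under other filters, variance models, array weights, quantile normalization, median centring and all probe sets. It was 97 with all 4 groups, 158 with sex as a covariate, 84 in males only, 59 with Pax5+/- mice of letter I, 23 with those of letter L, and 730 with the letter as a random block (consensus correlation -0.124). Leaving out each sample gave 104 to 387. The 1 gene in leukemia became 53 with all 4 groups, 2 with all probe sets, and 1 to 121 with each sample left out. The Pax5 difference of -0.425 (exact p = 0.0333) was -0.477 after quantile normalization (exact p = 0.0667) and -0.438 in males (exact p = 0.114). It ran from -0.606 to -0.301 with each sample left out (exact p from 0.0238 to 0.111), and in fits that leave out a WT sample the smallest possible p is above 0.05. Of the named genes put through these fits, none that passed reversed its sign in a fit that gave it. Reversals among the others were, without WT sample 18, Cd180 (-0.114), Apobec1 (0.011), Ccna2 (-0.171), Top2a (-0.209) and Neil3 (-0.165), and without WT sample 19, Apobec2 (0.006), Ccna2 (-0.136), Top2a (-0.224) and Neil3 (-0.145). Without WT sample 20 these genes stood at 0.236 (Cd180), -0.344 (Apobec1), -0.169 (Apobec2, and -0.224 without 18), 0.944 (Ccna2), 0.986 (Top2a) and 0.89 (Neil3). The causes were not tested. No paired analysis was possible because the sample numbers are unique and no number is shared between the groups.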
